A study of Mus musculus with 32 samples.

Results

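The genes of cone phototransduction, the cascade with which cone photoreceptors turn light into an electrical signal, were examined in RNA from the retinal pigment epithelium (RPE) of *rd1* mice. They were 10 of the 34453 genes in the count table and were chosen by name: the short-wave and middle-wave cone opsins *Opn1sw* and *Opn1mw*, cone arrestin (*Arr3*), the cone transducin subunits *Gnat2*, *Gnb3*, and *Gngt2*, the cone phosphodiesterase subunits *Pde6c* and *Pde6h*, and the cone cyclic nucleotide-gated channel subunits *Cnga3* and *Cngb3*. The choice was made with earlier results of these data known. *rd1* mice carry a loss-of-function allele of the rod phosphodiesterase gene *Pde6b*, so that rods die early while cones remain for some time. Every mouse served as its own control: both eyes carried the vector AAV-Best1-GFP, and one of them, called the Nrf2 eye, also carried AAV-Best1-Nrf2, in which the human Best1 promoter drives the human antioxidant transcription factor Nrf2 in the RPE. RNA was taken at P20 from 7 mice and at P40 from 9 mice, which gave 32 libraries of 16548332 to 50542797 counts each. All 4 groups thus share the *rd1* genotype and the GFP vector, and the mice at P20 and P40 are different animals.

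In a cone, light-activated opsin switches on transducin, transducin relieves the phosphodiesterase of its inhibitory subunit, and the fall in cyclic GMP closes the channel. Arrestin ends the signal by capping the opsin. The RPE lies against the outer segments in which these proteins sit, engulfs shed outer segment tips, and returns recycled chromophore to the photoreceptors, but these genes are known as photoreceptor genes and not as RPE genes.

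The eyecups had been stripped of retina before RNA was taken, so the first question was which cells the libraries held. The summed level of 14 RPE markers ranged from 12546 to 80523 CPM, which are counts scaled to library size with the TMM factors of edgeR. The markers differed widely in level, from a mean of 11797 CPM for *Ttr* over the 32 eyes to at most 4.21 CPM in any eye for *Best1*, the gene whose human promoter the vectors carry. The human *NFE2L2* transgene was between 1096 and 10483 CPM in Nrf2 eyes and at most 1110 CPM in control eyes, where 1 eye had none. Among P20 mice, the library labelled control of mouse 3 (1110 CPM) and that labelled Nrf2 of mouse 4 (1096 CPM) thus held nearly equal amounts, and the P20 calls are given with and without both mice. Markers of the inner retina were present in every group, with sums from 100.4 to 1513 CPM. Their defining bipolar cell gene *Pcp2* was at most 64.4 CPM in every eye except the Nrf2 eye of P40 mouse 6, where it reached 655 CPM. The source of the cone mRNAs was not tested. In such bulk samples, fewer cells of a type, less RNA per cell, and less retina left on the eyecup cannot be told apart. In retinal flat mounts of *rd1* mice, the paper reported fewer craters in the cone layer with AAV-Best1-Nrf2. It also reported a small rise in the ratio of central to total labelled cones. Those measures are of the retina, whereas the values here are of RNA from stripped eyecups.

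The upstream sequences of the genes with the largest differences between the eyes, and of *Gnat2*, which kept a median of 13.1 CPM or more in Nrf2 eyes, are shown as a reference for what follows. They are the 250 bases before the RefSeq start of each gene in GRCm38.p6, 5′ to 3′ on the gene's strand. The windows of *Opn1sw*, *Pde6h*, and *Gnat2* lie within the GENCODE spans given for these genes below. They are thus upstream of the RefSeq start only, and not of the whole annotated gene. Capitals mark TAATC and the longer TAATCC, the core of the site bound by the photoreceptor factor CRX, and TGACNNNGC, the core of the antioxidant response element bound by Nrf2, each searched on both strands.
*Opn1sw*, chr6:29380514-29380763, minus strand: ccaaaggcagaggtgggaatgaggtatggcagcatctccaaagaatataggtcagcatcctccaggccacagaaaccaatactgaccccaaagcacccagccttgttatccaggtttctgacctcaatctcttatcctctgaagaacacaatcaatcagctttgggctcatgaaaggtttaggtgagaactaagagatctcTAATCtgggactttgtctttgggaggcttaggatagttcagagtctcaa
*Opn1mw*, chrX:74127216-74127465, plus strand: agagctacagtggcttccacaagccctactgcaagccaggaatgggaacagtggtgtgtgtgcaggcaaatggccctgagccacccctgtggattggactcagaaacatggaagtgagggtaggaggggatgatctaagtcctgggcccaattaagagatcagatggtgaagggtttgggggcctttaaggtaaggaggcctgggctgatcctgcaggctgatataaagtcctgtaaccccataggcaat
*Arr3*, chrX:100605247-100605496, plus strand: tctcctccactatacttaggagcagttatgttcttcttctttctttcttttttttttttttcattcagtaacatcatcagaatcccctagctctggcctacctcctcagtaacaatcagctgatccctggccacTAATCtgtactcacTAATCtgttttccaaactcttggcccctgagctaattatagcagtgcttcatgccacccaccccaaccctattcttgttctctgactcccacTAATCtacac
*Pde6h*, chr6:136954273-136954522, plus strand: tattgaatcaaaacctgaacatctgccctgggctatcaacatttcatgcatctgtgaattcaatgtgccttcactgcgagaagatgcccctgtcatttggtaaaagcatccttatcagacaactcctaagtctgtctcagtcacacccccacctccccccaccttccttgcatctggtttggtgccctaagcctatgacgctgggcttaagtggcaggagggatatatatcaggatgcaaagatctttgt
*Gnat2*, chr3:108092816-108093065, plus strand: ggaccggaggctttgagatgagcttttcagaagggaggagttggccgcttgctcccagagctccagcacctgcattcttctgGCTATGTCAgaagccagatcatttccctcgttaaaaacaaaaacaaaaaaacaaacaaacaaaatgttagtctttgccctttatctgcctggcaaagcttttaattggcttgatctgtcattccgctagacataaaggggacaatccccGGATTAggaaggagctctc

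TAATC occurred 3 times in the window of *Arr3*, 116, 102, and 10 bases before its start, and once each in those of *Opn1sw* and *Gnat2*. Of all 32851 RefSeq windows of this length, 19.8% held the motif at least once and 0.554% held it at least 3 times. TAATC was searched after the windows had been read, so these shares do not measure how unusual the *Arr3* window is. The longer TAATCC, which 6.25% of all windows held, was present in *Gnat2* (in its reverse form GGATTA, 19 bases before the start) and in none of the other windows. *Gnat2* also held the only TGACNNNGC, as its reverse form 168 bases before the start, against 10.2% of all windows. *Cnga3*, with 2 windows, held none of these motifs. The windows of *Pde6c*, *Cngb3*, *Gngt2*, and *Gnb3* were not analysed here. These matches are descriptions of letters and say nothing of binding.

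The main comparison asked whether cone mRNAs differed between the Nrf2 eye and the control eye of a mouse. All 10 genes had a lower fitted level in Nrf2 eyes at both ages. At P40, 9 of the 10 were called lower at an adjusted *P* under 0.05 (quasi-likelihood test of edgeR, blocked on the mouse, with Benjamini-Hochberg adjustment over all genes), whereas 1.23% of the 16686 genes tested were called lower. At P20, 2 of the 10 were called lower, *Opn1sw* and *Gnat2*, against 0.485% of 16303 genes. The shares over all genes are a reference only, since the 10 genes were chosen with earlier results of these data known. The median log2 fold change over the 10 genes was −3.28 at P40 and −2.06 at P20, beside −0.03 and −0.04 over all genes tested. At an unadjusted *P* under 0.05, 8 of the 10 were lower at P20, against 7.51% of all genes, and all 10 at P40, against 5.17%. The P20 count hung on the mice and on the fit: it was 0 without mouse 1, 5, or 7, 3 without mouse 4, 6 without the mouse block, and 6 by DESeq2.

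**Figure D1:**
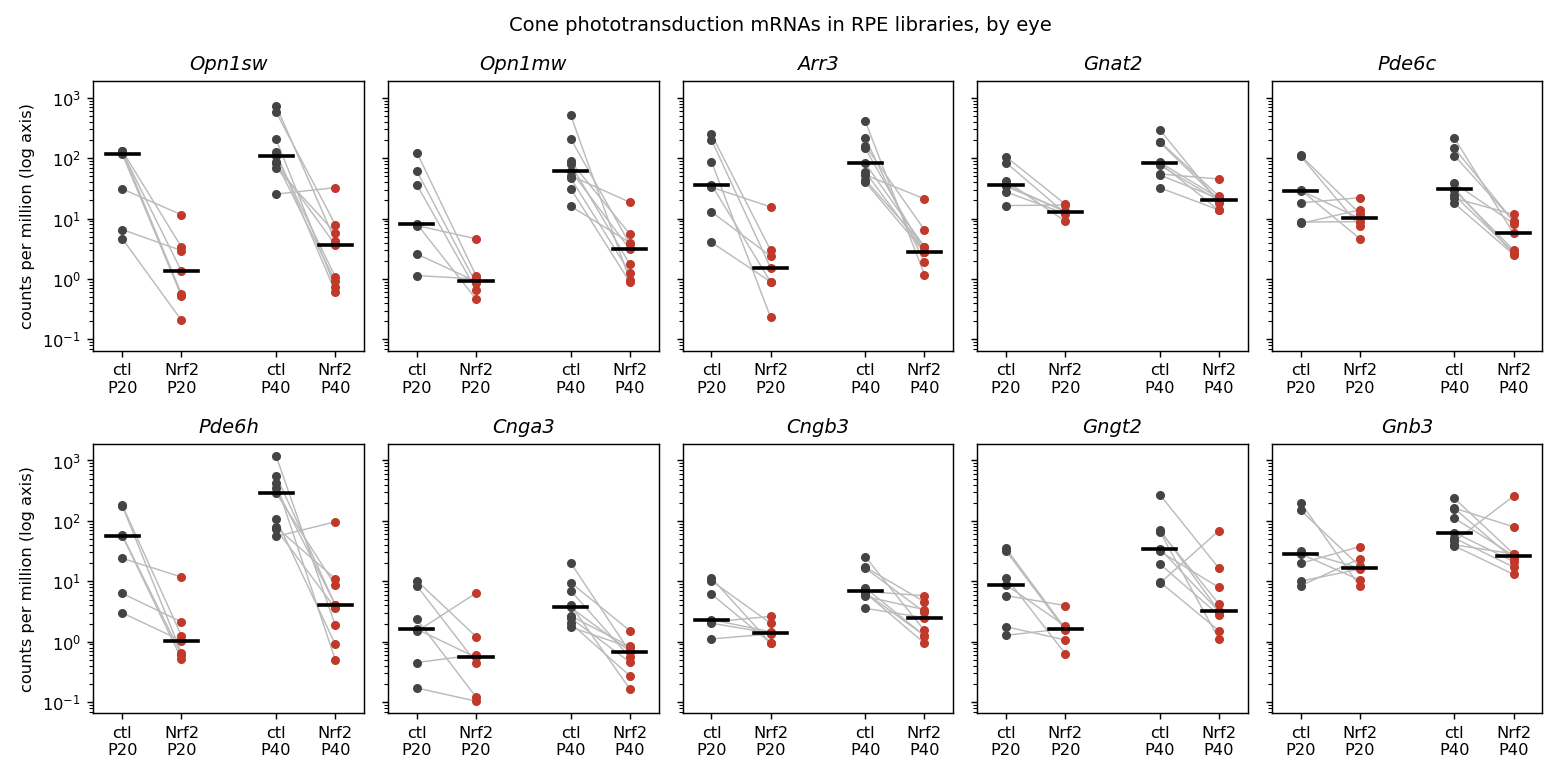
Level of each of the 10 cone genes in every eye, as CPM on a log axis. Points are eyes (grey control, red Nrf2), thin lines join the eyes of one mouse, and black bars are group medians; ctl stands for control. In the opsins, *Arr3*, and *Pde6h*, the medians of the Nrf2 eyes lie at or below 4.07, whereas *Gnat2* and *Gnb3* keep medians of 13.1 to 26.6 in Nrf2 eyes.

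The opsin genes showed some of the largest differences. *Opn1sw* (chr6:29376671-29388468, minus strand), the opsin that dominates in ventral mouse cones, ranged at P40 from 25.4 to 739 CPM with a median of 110.5 in control eyes and from 0.613 to 32.6 with a median of 3.69 in Nrf2 eyes. The groups overlapped through mouse 6 alone, whose control eye was the lowest and whose Nrf2 eye was the highest of its group. Fitted over the 9 pairs, it was 62.7-fold lower in Nrf2 eyes, a log2 change of −5.97 (SE 0.91, adjusted *P* = 0.00220). At P20, its control eyes ranged from 4.65 to 133 CPM (median 117) and its Nrf2 eyes from 0.208 to 11.6 CPM (median 1.35). It was lower in the Nrf2 eye of all 7 mice, with a fitted log2 change of −5.12 (SE 1.13, adjusted *P* = 0.0461). This call was held narrowly: without mice 3 and 4 the adjusted *P* was 0.108, and without any one of mice 1, 3, 5, and 7 the adjusted *P* was between 0.114 and 0.159.

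*Opn1mw* (chrX:74127464-74150760, plus strand), the middle-wave opsin, ranged at P40 from 16.1 to 516 CPM (median 62.5) in control eyes and from 0.888 to 18.7 CPM (median 3.10) in Nrf2 eyes. It was lower in the Nrf2 eye of all 9 mice, with a fitted log2 change of −4.71 (SE 0.72, adjusted *P* = 0.00226). At P20, the control eyes spread from 1.14 to 124 CPM around a median of 8.14, and the Nrf2 eyes from 0.467 to 4.64 CPM around 0.913. All 7 mice again had the lower level in the Nrf2 eye, with within-mouse differences from −6.69 to −0.18. The fitted log2 change of −3.73 (SE 1.08) did not pass the test (adjusted *P* = 0.115).

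*Arr3* (chrX:100605497-100618493, plus strand), which shuts off activated cone opsin, separated the eyes fully at P40. Control eyes ranged from 40.4 to 412 CPM (median 81.8) and Nrf2 eyes from 1.18 to 21.3 CPM (median 2.85), with a fitted log2 change of −4.83 (SE 0.66, adjusted *P* = 0.00107). At P20, it ranged from 4.05 to 248 CPM (median 36.4) in control eyes and from 0.231 to 15.6 CPM (median 1.53) in Nrf2 eyes, and it was lower in the Nrf2 eye of all 7 mice. Its log2 fold change there was −4.73 (SE 1.09, adjusted *P* = 0.0545). The fitted change was thus nearly as large at P20 as at P40, with a wider error.

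The transducin subunits differed less. *Gnat2* (chr3:108092789-108101432, plus strand), the cone α subunit that activates the phosphodiesterase, ranged at P40 from 32.4 to 297 CPM (median 82.9) in control eyes and from 13.7 to 45.2 CPM (median 20.4) in Nrf2 eyes, with a fitted log2 change of −2.22 (SE 0.37, adjusted *P* = 0.00385). At P20, it ranged from 16.4 to 106 CPM (median 36.1) in control eyes and from 9.06 to 17.4 CPM (median 13.1) in Nrf2 eyes, with −1.69 (SE 0.32, adjusted *P* = 0.0297). The P20 call held in 2 of the 7 fits that left out a mouse, and it was lost without mouse 1, 2, 5, 6, or 7 (adjusted *P* up to 0.112), and it held without mice 3 and 4 together (adjusted *P* = 0.0157). *Gnat2* had the smallest standard error of the 10 genes at both ages, and 6 of 7 mice at P20 and 9 of 9 at P40 had the lower level in the Nrf2 eye.

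*Gnb3* (chr6:124834240-124840275, minus strand), the cone β subunit, which ON bipolar cells also make, was the exception at P40. Its control eyes ranged from 38.5 to 237 CPM (median 64.1) and its Nrf2 eyes from 13.03 to 258 CPM (median 26.6), so that the highest value of all 18 eyes belonged to a Nrf2 eye, that of mouse 6. The fitted log2 change of −1.48 (SE 0.49) did not pass the test (adjusted *P* = 0.148). Without mouse 6, it was −1.83 with an adjusted *P* of 0.00224, and all 10 genes were then called. At P20, *Gnb3* was between 8.45 and 201 CPM (median 28.5) in control eyes and between 8.26 and 37.5 CPM (median 16.51) in Nrf2 eyes, with a fitted log2 change of −0.92 (SE 0.79, adjusted *P* = 0.568).

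*Gngt2* (chr11:95837216-95845734, plus strand), the cone γ subunit, ranged at P40 from 9.31 to 272 CPM (median 34.8) in control eyes and from 1.11 to 69.1 CPM (median 3.21) in Nrf2 eyes. The fitted log2 change of −3.30 (SE 0.73, adjusted *P* = 0.0222) was the least firm of the 9 calls. It held in 3 of the 9 fits that left out a mouse, with adjusted *P* values of 0.0508 to 0.0690 in the others, and it was lost without the mouse block (adjusted *P* = 0.148). At P20, its control eyes were between 1.28 and 35.0 CPM (median 8.74) and its Nrf2 eyes between 0.636 and 3.97 CPM (median 1.65), with −2.35 (SE 0.75, adjusted *P* = 0.148).

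The phosphodiesterase subunits were read next. *Pde6c* (chr19:38132781-38183958, plus strand), the catalytic subunit that hydrolyzes cyclic GMP, ranged at P20 from 8.31 to 111 CPM (median 29.1) in control eyes and from 4.67 to 22.2 CPM (median 10.1) in Nrf2 eyes. It was lower in the Nrf2 eye of 4 mice and higher in that of 3, with a fitted log2 change of −1.49 (SE 0.65, adjusted *P* = 0.274). *Pde6h* (chr6:136923832-136968865, plus strand), the inhibitory subunit, ranged at P20 from 3.00 to 181 CPM (median 56.8) in control eyes and from 0.520 to 11.8 CPM (median 1.04) in Nrf2 eyes. It was lower in the Nrf2 eye of all 7 mice, but the fitted log2 change of −4.84 (SE 1.30) did not pass the test (adjusted *P* = 0.0898). The difference between these subunits was not tested.

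At P40, both passed. *Pde6c* ranged from 17.9 to 215 CPM (median 31.4) in control eyes and from 2.55 to 11.7 CPM (median 5.69) in Nrf2 eyes, without overlap, and its fitted log2 change of −3.27 (SE 0.40) had the lowest adjusted *P* of the 10 genes (0.000457). *Pde6h* ranged from 55.3 to 1187 CPM (median 290) in control eyes and from 0.504 to 96.6 CPM (median 4.07) in Nrf2 eyes, with −5.95 (SE 1.13, adjusted *P* = 0.00888). Only the Nrf2 eye of mouse 6 reached into the range of the control eyes, and without mouse 6 no *Pde6h* value of a Nrf2 eye was above 11.01 CPM.

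The channel subunits, which carry the cone's light-sensitive current, were the least abundant. Per kilobase of the principal transcript, their medians in control eyes at P40 were 1.04 (*Cnga3*) and 1.45 CPM (*Cngb3*), against 12.2 to 60.2 for the other 8 genes. *Cnga3* (chr1:37214434-37263384, plus strand) ranged at P40 from 1.74 to 20.2 CPM (median 3.69) in control eyes and from 0.165 to 1.52 CPM (median 0.680) in Nrf2 eyes, without overlap, with a fitted log2 change of −2.92 (SE 0.44, adjusted *P* = 0.00204). *Cngb3* (chr4:19280850-19510623, plus strand) ranged from 3.57 to 25.6 CPM (median 6.81) in control eyes and from 0.945 to 5.77 CPM (median 2.51) in Nrf2 eyes, with −1.99 (SE 0.41, adjusted *P* = 0.0150).

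At P20, neither channel subunit passed the test. *Cnga3* was between 0.171 and 10.2 CPM (median 1.61) in control eyes and between 0.104 and 6.40 CPM (median 0.549) in Nrf2 eyes, with −1.77 (SE 0.93, adjusted *P* = 0.354), and its lowest Nrf2 library held 3 reads. *Cngb3* was between 1.11 and 11.4 CPM (median 2.32) in control eyes and between 0.950 and 2.63 CPM (median 1.38) in Nrf2 eyes, with −1.32 (SE 0.57, adjusted *P* = 0.270).

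**Figure D2:**
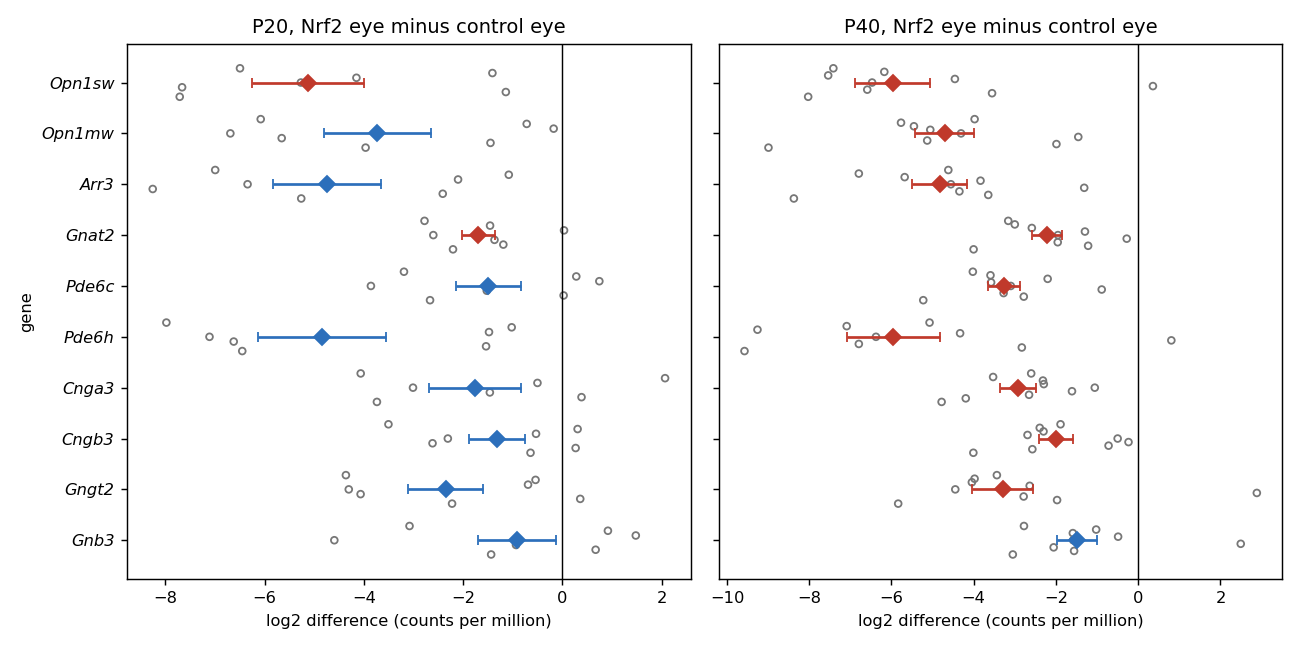
Difference in log2 CPM between the Nrf2 eye and the control eye of each mouse (open circles, 7 mice at P20 and 9 at P40), with the fitted log2 fold change and its standard error (diamonds and bars, red where the adjusted *P* was under 0.05 and blue otherwise). All diamonds lie below 0, and the circles to the right of 0 at P40 all belong to mouse 6.

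Within most mice, the 10 genes differed in the same direction. At P40, all 10 were lower in the Nrf2 eye in every mouse except mouse 6, where 6 were lower and 4 (*Opn1sw*, *Pde6h*, *Gngt2*, and *Gnb3*) were higher. At P20, all 10 were lower in mice 1, 4, 5, and 7, with median differences of −4.45 to −3.20 on the log2 scale. In mice 2, 3, and 6, by contrast, between 5 and 7 were lower and the median differences were −0.63 to −0.52. Gene by gene, 4 of the 10 were lower in the Nrf2 eye of every mouse at P20, against 2.69% of all genes, and 6 of the 10 at P40, against 1.05%. At P40, 3 genes (*Arr3*, *Pde6c*, and *Cnga3*) had no overlap between the groups, against 0.114% of all genes, and at P20 none had, against 0.221%.

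The P20 mice with small differences were those with little cone mRNA in the control eye. The control level is part of the difference, so this relation is in part given by construction. The summed level of the 10 genes in control eyes was 969, 1153, 412, and 348 CPM in mice 1, 4, 5, and 7, but 179, 50.0, and 77.7 CPM in mice 2, 3, and 6. The control eye of mouse 3, which was the one with 1110 CPM of the transgene, was the lowest of its group in 8 of the 10 genes. The 7 Nrf2 eyes at P20 varied less, from 30.2 to 130 CPM, and the one with 1096 CPM of the transgene was among them at 46.6 CPM. In the control eyes of mice 1 and 4, the summed markers of other retinal cells were also the highest of their group. They were 914 and 975 CPM for the inner retina, 522 and 432 for rods, and 547 and 507 for Müller glia. In mice 5 and 7, the inner retinal sums (264 and 384 CPM) lay within those of mice 2, 3, and 6 (220 to 421 CPM). The part of these cells in the cone mRNA level was not tested. Without mice 3 and 4, 1 of the 10 genes was called at P20, *Gnat2*.

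At P40, the summed level ranged from 326 to 2422 CPM (median 807) in control eyes and from 57.8 to 560 CPM (median 66.4) in Nrf2 eyes. As a share of all counts, the median was 0.0738% in control eyes and 0.00617% in Nrf2 eyes. The eye at 560 CPM was again that of mouse 6, the highest of its group in 9 of the 10 genes, and the next highest Nrf2 eye held 138 CPM. In the same library, the summed markers of the inner retina (1513 CPM), of rods (150), and of Müller glia (1037) were also the highest of their group, and their part in its cone mRNA level was not tested.

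**Figure D3:**
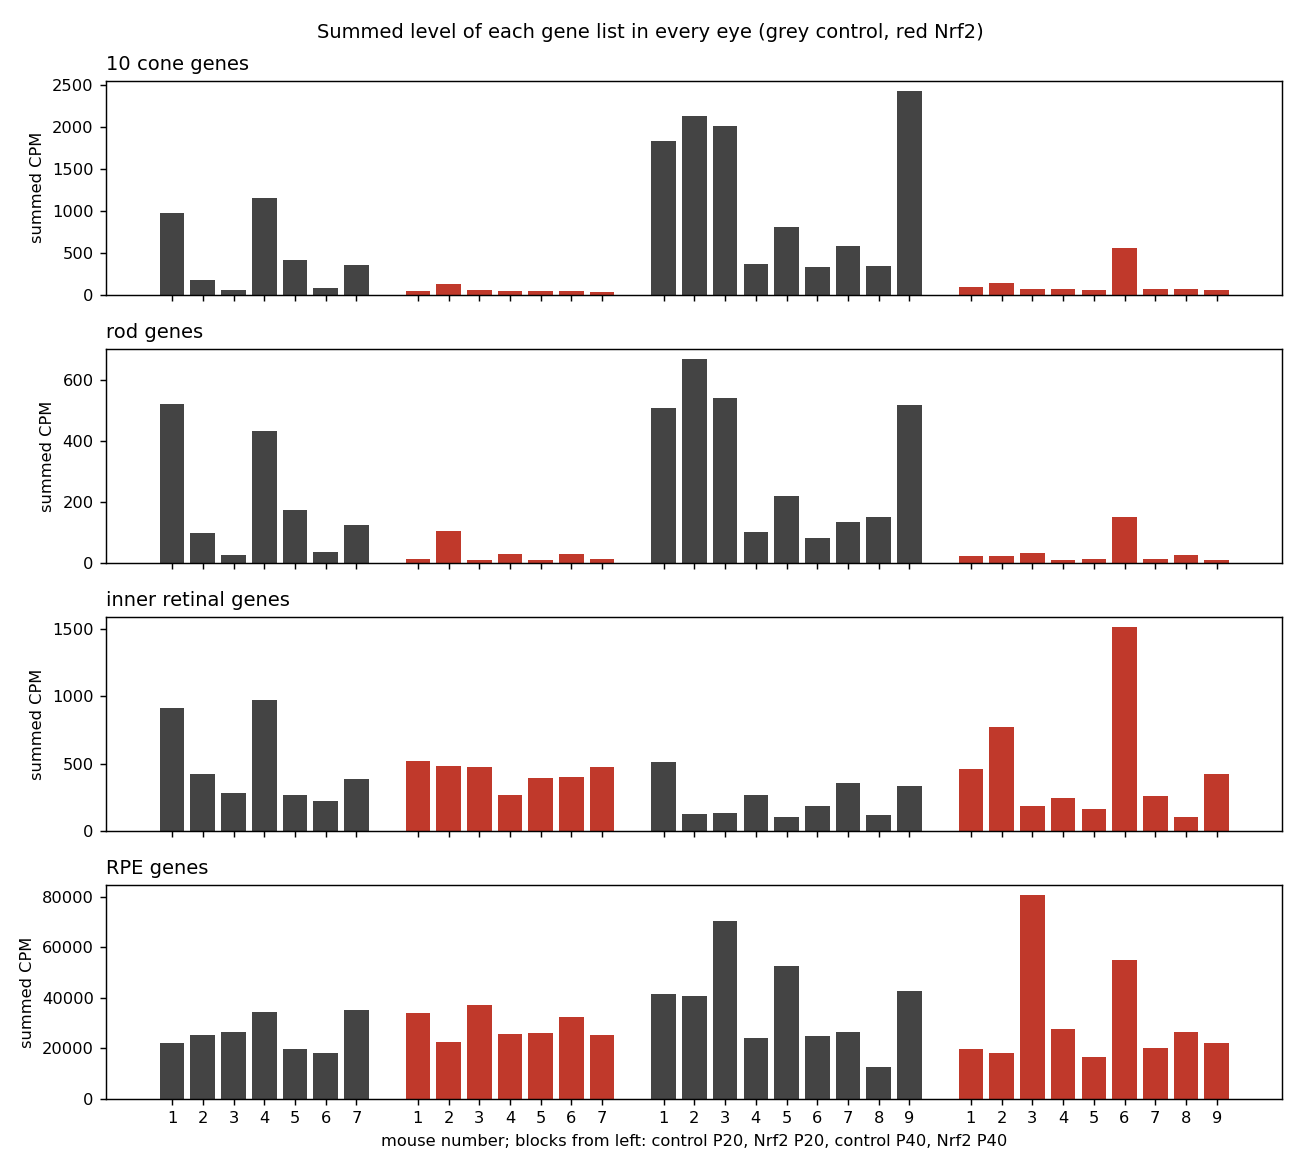
Summed CPM of the 10 cone genes, 11 rod genes, 10 inner retinal genes, and 14 RPE genes in each of the 32 eyes (bars, linear axes from 0, grey control and red Nrf2). The inner retinal sum is highest in the Nrf2 eye of P40 mouse 6 (1513 CPM), and the RPE sum in the Nrf2 eye of P40 mouse 3 (80523 CPM).

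Other photoreceptor genes were read beside the cone genes. Of 17 genes whose products serve both rods and cones, 6 were lower in Nrf2 eyes at P40: the opsin kinase *Grk1*, recoverin (*Rcvrn*), the guanylyl cyclase activator *Guca1a*, the phosphodiesterase chaperone *Aipl1*, the transcription factor *Crx*, and the disc rim protein *Prph2*. *Aipl1* (−4.77, SE 0.62, adjusted *P* = 0.000736) and *Rcvrn* (−4.84, SE 0.81, adjusted *P* = 0.00398) showed changes of the size of those of the opsins. *Rom1*, a disc rim protein like *Prph2*, went the other way, with log2 fold changes of 1.51 (SE 0.25, adjusted *P* = 0.00343) at P40 and 1.97 (SE 0.36, adjusted *P* = 0.0252) at P20; of all genes, 3.33% and 2.93% were called higher at these ages. At P20, edgeR called 1 gene lower, *Tulp1* (−1.63, SE 0.25, adjusted *P* = 0.0145), whereas 9 of the 17 had an unadjusted *P* under 0.05 and DESeq2 called 7 lower and 1 higher. Both P20 calls held without mice 3 and 4 (*Rom1*, 2.30, adjusted *P* = 0.00360; *Tulp1*, −1.61, adjusted *P* = 0.0436). The list's median log2 fold change was −1.62 at P40 and −1.42 at P20, or −1.15 without these mice. Its most abundant gene was *Unc119*, a transducin carrier made in many tissues, at a mean of 272 CPM over the 32 eyes.

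Of 3 cone transcription factors (*Thrb*, *Rxrg*, and *Sall3*), edgeR called none at either age, 0 had an unadjusted *P* under 0.05 at P20 and 1 at P40, and DESeq2 called 1 lower at P40. *Thrb*, the most abundant, ranged from 10.4 to 68.4 CPM (median 39.2) in control eyes and from 21.3 to 72.0 CPM (median 24.3) in Nrf2 eyes at P40, with a fitted log2 change of −0.38 (SE 0.23, adjusted *P* = 0.569). It is made in many tissues, so its level does not stand for cones alone.

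Of the 11 rod genes, *Gngt1*, *Pde6g*, and *Sag* were lower in Nrf2 eyes at P40, out of 10 tested, and none passed at P20, where all 11 had a negative fold change (median −1.36), 5 had an unadjusted *P* under 0.05, and DESeq2 called 5 lower. Without P20 mice 3 and 4, again none passed and all 11 were negative (median −1.44). *Sag*, the rod arrestin, which mouse cones also make, had a median of 79.2 CPM in control eyes and 3.77 CPM in Nrf2 eyes at P40, with −4.95 (SE 0.60, adjusted *P* = 0.000459). The rod transducin *Gnat1* did not pass (−0.35, SE 0.33, adjusted *P* = 0.777).

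Among the 14 RPE genes, 4 of the visual cycle were lower in Nrf2 eyes at P40. *Rpe65*, the isomerase that regenerates chromophore, was lower in Nrf2 eyes at P20 (−2.17, SE 0.37, adjusted *P* = 0.0198; −2.59, adjusted *P* = 0.0169, without mice 3 and 4) and at P40 (−2.82, SE 0.32, adjusted *P* = 0.000281), where its range was 782 to 3665 CPM in control eyes and 177 to 737 CPM in Nrf2 eyes, without overlap. *Lrat* (−1.80), *Rgr* (−1.43), and *Rdh5* (−1.06), which also handle retinoids, were lower at P40 with adjusted *P* values of 0.00122, 0.0131, and 0.0356. The most abundant gene of the list, *Ttr*, and the other 9 were not called by edgeR at P40, where 8 of the 14 had an unadjusted *P* under 0.05. DESeq2 called 6 lower there, with the lactate transporter gene *Slc16a8* and the phagocytosis receptor gene *Mertk* added, and 1 higher, *Best1*. Of the inner retinal genes, edgeR called none between the eyes at either age, 2 of 9 had an unadjusted *P* under 0.05 at P20 and 1 of 10 at P40, and DESeq2 called 3 and 1 lower. Their median log2 fold change was −1.80 at P20 (7 negative, 2 positive) and −0.64 at P40 (6 negative, 4 positive). The P20 median thus lay between those of the cone genes and of the shared photoreceptor genes. Without P20 mice 3 and 4, the inner retinal median at P20 was −1.48. Differences between the lists were not tested. Of the 4 Müller glial genes, edgeR called none, 1 had an unadjusted *P* under 0.05 at P20 and 0 at P40, and DESeq2 called 1 higher at P20, the glutamine synthetase gene *Glul*, which edgeR also called without mice 3 and 4 (0.63, adjusted *P* = 0.0478). The other 3 Müller glial genes had a negative fold change at P20.

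The next comparison was of age, P40 with P20, in control eyes. All 10 cone genes had a higher fitted level at P40, with a median log2 fold change of 1.20 beside −4.61e-05 over all genes, but none was called at an adjusted *P* under 0.05, against 8.34% of all genes called higher. At an unadjusted *P* under 0.05, 4 of the 10 were higher, against 19.3% of all genes, and DESeq2 called 4. The largest changes were those of *Pde6h* (2.36, SE 0.85, adjusted *P* = 0.0644) and *Gngt2* (2.35, SE 0.81, adjusted *P* = 0.0577), followed by *Opn1mw* (1.86, SE 0.88, adjusted *P* = 0.144) and *Opn1sw* (1.56, SE 0.77, adjusted *P* = 0.156). *Gnat2* (1.28, SE 0.46, adjusted *P* = 0.0674) and *Cngb3* (1.12, SE 0.51, adjusted *P* = 0.131) came next, and *Cnga3*, *Gnb3*, *Pde6c*, and *Arr3* were between 0.64 and 0.77. The age groups overlapped in each of the 10, whereas 1.19% of all genes were higher at P40 without overlap.

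In the same control eyes, 3 of the 11 rod genes were called lower at P40, against 6.42% of all genes, and none higher, but the fitted changes of the list were mixed, 7 negative and 4 positive. *Gngt1* (1.58), *Pde6g* (1.12), and *Sag* (0.92), the most abundant of the list, were among the positive ones and did not pass (adjusted *P* between 0.176 and 0.352). The rod channel subunit *Cngb1* (−2.06, adjusted *P* = 0.0274) and the rod transcription factor *Nr2e3* (−2.54, adjusted *P* = 0.0375) fell, whereas *Guca1a*, *Pde6d*, and *Tulp1* of the 17 shared genes rose. Without P20 mice 3 and 4, these 5 genes were no longer called (adjusted *P* between 0.0633 and 0.0991), and 1 of the 11 rod genes was.

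A property of the libraries moved with age. In control eyes, genes with a principal transcript under 1000 bases had a median log2 fold change of 0.82 between P40 and P20, and those over 3000 bases one of −0.24. In Nrf2 eyes, the same medians were 0.78 and −0.20, whereas between the eyes of a mouse they were 0.05 and −0.08 at P20 and 0.04 and −0.04 at P40. Among control eyes at P40, short transcripts stood highest above long ones, relative to the group, in mice 5 and 3, by 1.15 and 1.08 (log2). The Nrf2 eye of P40 mouse 8 stood higher still, at 1.23. Between the eyes of single P40 mice, this value differed in both directions, which the medians between eyes do not show. It was 0.29 in the control eye and −0.90 in the Nrf2 eye of mouse 2, and 1.15 and 0.05 in mouse 5. In mouse 6 it was −0.43 in the control eye and 0.74 in the Nrf2 eye, and in mouse 8 it was 0.23 and 1.23. The control eye of mouse 5 held 347 CPM of *Pde6h* and 71.2 CPM of *Gngt2*. That of mouse 3 had the highest *Pde6h* (1187 CPM) and *Gngt2* (272 CPM) of all eyes while *Opn1sw*, *Opn1mw*, *Arr3*, *Gnat2*, *Pde6c*, *Cnga3*, *Cngb3*, and *Gnb3* were highest elsewhere. By its principal transcript, which may not be the form expressed, *Pde6h* (5940 bases) was among the long genes, and *Gngt2* (1587 bases) was in neither class. *Pde6h* and *Gngt2* correlated at r = 0.94 in control eyes at P40. Among Nrf2 eyes at P40, *Gngt2* was highest in mice 6, 3, and 8, where short transcripts also stood highest. *Pde6h* was 1.88 CPM in the Nrf2 eye of mouse 3, below the group median of 4.07 CPM. The part of transcript length in the age differences and in the differences between the eyes of single mice was not tested. The sample titles also number the P20 and the P40 libraries in separate series, so that age and anything else that differed between these series cannot be told apart in any comparison of the ages.

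In Nrf2 eyes, 8 of the 10 genes had a higher fitted level at P40 than at P20 and 2 (*Pde6c*, −0.86, and *Cnga3*, −0.99) a lower one, with a median log2 fold change of 1.03 beside 0.02 over all genes. None was called, against 0.167% of all genes called higher and 0.334% called lower. At an unadjusted *P* under 0.05, 5 were higher and *Pde6c* was lower, against 14.8% and 11% of all genes, and DESeq2 called 4. *Gngt2* (2.89, SE 0.86, adjusted *P* = 0.110) and *Gnat2* (0.77, SE 0.24, adjusted *P* = 0.110) were nearest to the threshold. The values of Nrf2 eyes remained low at both ages, for example a median of 1.04 CPM at P20 and 4.07 CPM at P40 for *Pde6h*.

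Whether the Nrf2 effect itself differed between P20 and P40 was tested over all 32 libraries. None of the 10 genes passed, and 0.00557% of the 17959 genes tested were called. All 10 estimates were negative, from −1.78 to −0.07 on the log2 scale, and 1 gene had an unadjusted *P* under 0.05: *Pde6c* (−1.78, SE 0.75, unadjusted *P* = 0.0298, adjusted *P* = 0.9995), against 1.25% of all genes lower at that level. For *Arr3*, the estimate was −0.07 (SE 1.28). The larger number of calls at P40 than at P20 was thus not accompanied by a difference between ages that passed the test, and DESeq2 likewise called none of the 10.

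The 10 genes varied together between the eyes of a group. Over the 45 pairs of genes, the Pearson correlation of log2 CPM was positive in all 45 in control eyes at P20 (median r 0.94), in 44 in Nrf2 eyes at P20 (median 0.65), and in all 45 at P40 in control eyes (median 0.77) and in Nrf2 eyes (median 0.57). These are descriptions over 7 or 9 eyes that share the dissection and the library of each eye. The lowest correlation in control eyes at P20 was 0.76, between *Cngb3* and *Opn1sw*, and the highest was 0.99, between *Gnb3* and *Pde6c*.

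**Figure D4:**
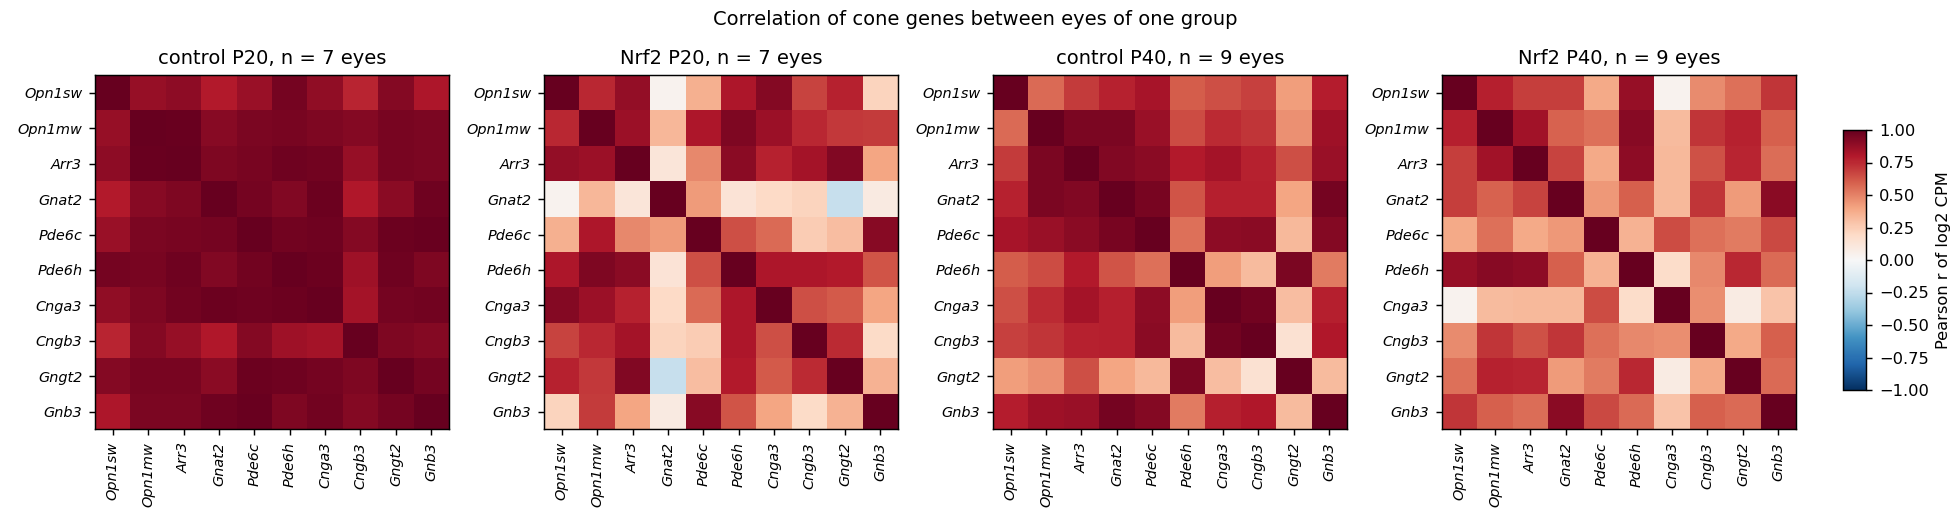
Pearson correlation of log2 CPM between the 10 cone genes over the eyes of each group (color scale from −1 to 1; 7 eyes per group at P20, 9 at P40). Control eyes at P20 are uniformly high, from 0.76 to 0.99, whereas *Gnat2* in Nrf2 eyes at P20 and *Gngt2* in control eyes at P40 have the lowest mean correlation with the other genes, 0.15 and 0.44.

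Genes whose products act as partners were tested by exact permutation, 5 pairs in 4 groups and thus 20 tests, with Benjamini-Hochberg adjustment. The test asks only whether the correlation of a pair differs from 0. Over all 45 pairs, the median r was already 0.94 in control eyes at P20 and 0.77 at P40. A pair that passed is therefore not set apart from other pairs. Whether partners correlated more than other genes was not tested. The channel subunits *Cnga3* and *Cngb3* correlated in control eyes at P40 with r = 0.97 (exact permutation *P* = 1.93e-05, adjusted *P* = 0.000193) and Spearman's ρ = 0.98 (exact *P* = 4.96e-05, adjusted *P* = 0.000496). *Gnat2* and *Gnb3* correlated there with r = 0.95 (exact permutation *P* = 2.76e-06, adjusted *P* = 5.51e-05) and Spearman's ρ = 1.00 (exact *P* = 5.51e-06, adjusted *P* = 0.000110). Both relations held without the 2 eyes farthest from the median of the first gene, at r = 0.93 and 0.94 over 7 eyes.

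The values of the partner pairs varied between groups. In Nrf2 eyes, *Gnat2* and *Gnb3* had r = 0.90 at P40 (exact permutation *P* = 0.00130, adjusted *P* = 0.00648; Spearman's ρ = 0.75, exact *P* = 0.0255, adjusted *P* = 0.0566), which fell to 0.75 without the 2 farthest eyes, and r = 0.09 at P20 (exact permutation *P* = 0.870, adjusted *P* = 0.870; Spearman's ρ = 0.07, exact *P* = 0.906). *Gnb3* and *Gngt2*, which form the transducin βγ dimer, had r = 0.96 in control eyes at P20 (exact permutation *P* = 0.00476, adjusted *P* = 0.0159; Spearman's ρ = 0.93, exact *P* = 0.00675, adjusted *P* = 0.0337), but r = 0.32 in control eyes at P40 (exact permutation *P* = 0.403, adjusted *P* = 0.448; Spearman's ρ = 0.43, exact *P* = 0.250). *Pde6c* and *Pde6h* likewise had r = 0.96 at P20 (exact permutation *P* = 0.00357, adjusted *P* = 0.0143; Spearman's ρ = 0.96, exact *P* = 0.00278, adjusted *P* = 0.0185) and r = 0.55 at P40 in control eyes (exact permutation *P* = 0.124, adjusted *P* = 0.177; Spearman's ρ = 0.62, exact *P* = 0.0857). The opsins had r = 0.87 in control eyes at P20 (exact permutation *P* = 0.0127, adjusted *P* = 0.0330; Spearman's ρ = 0.89, exact *P* = 0.0123, adjusted *P* = 0.0346) and 0.59 without the 2 farthest eyes. Without the control eye of P20 mouse 3, the correlation of the opsins was 0.79 and did not pass (adjusted *P* = 0.111), whereas that of *Cnga3* and *Cngb3* in control eyes at P20 passed (r = 0.89, adjusted *P* = 0.0317 by exact permutation over 6 eyes). Without the Nrf2 eye of P20 mouse 4, *Gnat2* and *Gnb3* in Nrf2 eyes at P20 had r = 0.67 in place of 0.09 (adjusted exact permutation *P* = 0.177). Differences between groups in these correlations were not tested.

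The genes most like the cone genes outside the 10 were found by correlating, over the 32 eyes and after removing group means, the log2 CPM of each of 17930 genes with the mean of the 10. The 5 most alike were *Sag* (r = 0.94), *Aipl1* (0.93), *Rtbdn* (0.92), *Pde6g* (0.89), and *Slc1a7* (0.88). *Rtbdn* encodes retbindin, a riboflavin-binding protein of the photoreceptor surface, and *Slc1a7* a glutamate transporter of photoreceptor and bipolar cell terminals. *Rtbdn* had medians of 17.7 CPM in control eyes and 0.630 CPM in Nrf2 eyes at P40 (log2 fold change −5.51, adjusted *P* = 0.00239). *Slc1a7*, at 5.15 and 1.27 CPM, did not pass (−1.86, adjusted *P* = 0.1502).

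Reads of *Opn1sw*, *Pde6h*, and *Gngt2* cannot be fully told apart from those of *Calu*, *Arhgdib*, and *Abi3*, genes on the opposite strand with which they share 397, 136, and 234 bases of exon, because the amplification kit does not keep strand.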

How the data were processed

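RNA of the RPE from both eyes of 16 *rd1* mice was profiled, 7 mice at P20 and 9 at P40. The authors amplified the RNA and, per the methods, aligned reads to mm10 with STAR, counted with featureCounts, and estimated counts with Salmon (version 0.9.1 in the submitters' processing notes) through tximport. The deposited table holds estimated counts for each gene as whole numbers, without any normalization by the authors; that they come from Salmon is not stated in the table. Groups and ages follow the labels, which call every sample *rd1*. Eyes were paired by the replicate number in the sample titles, which do not name the mouse. The methods count fewer *rd1* pairs at P20 and P40 and add a wild-type strain at P40. No check of the strain of single mice is reported here. Sex and litter are not given, and which of the 2 sequencing runs held a library is not given in the sources used here, so no values within runs were computed.

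Genes were kept by filterByExpr, scaled by TMM, and tested with edgeR 4.0.16 (quasi-likelihood, R 4.3.3), with the mouse as a block between eyes and no block between ages. *P* values were adjusted by Benjamini-Hochberg over all genes tested, with a threshold of 0.05. The standard error was derived from the fold change and the F statistic. CPM were scaled over all 32 libraries, and log2 CPM used a prior count of 2. At 3 counts or fewer a gene was taken as at the floor; intervals and floors cover counting error only. DESeq2 1.42.0, other scaling and filters, and fits without a mouse were alternatives; for genes of the other lists, DESeq2 and the fit without P20 mice 3 and 4 were added after seeing the data. Scripts were tested on simulated data.

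The eyes of a mouse are paired because they come from one animal. Deviations of log2 CPM from the group mean had an average correlation between fellow eyes of 0.014 (P20) and 0.106 (P40) over the genes tested, and of 0.00049 and −0.0056 between eyes of different mice.

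All 10 cone genes are named. Marker lists of rods, RPE, inner retina, Müller glia, macrophages, endothelium and fibroblasts, blood, and muscle, and lists of shared photoreceptor genes and cone transcription factors, are given by counts, with the most abundant and the called genes named, except for 2 listed genes whose own results are not reported here. The 10 genes and the lists were chosen with earlier results of these data known, and TAATC was searched after the windows had been read. Coordinates are from GENCODE and windows from RefSeq, both on GRCm38; they are of the reference strain. Lengths are of the APPRIS principal transcript, which for *Pde6h* is 5940 bases and may not be the form expressed.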

Additional observations from a re-analysis of the deposited data

Results flagged for a closer look

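In 40 sets of values (10 genes in 4 groups), 2 eyes stood far from the rest of their group by Dixon's test, and chance alone would mark about 1 in 20 sets. For *Opn1mw*, the Nrf2 eye of P20 mouse 2 had a log2 CPM of 2.23, far above the other 6 Nrf2 eyes of that age. The same eye was the highest of its group in 9 of the 10 cone genes. For *Gnat2*, the Nrf2 eye of P40 mouse 6 had a log2 CPM of 5.50, far above the other 8. This eye also had the highest sums of inner retinal, rod, and Müller glial genes in its group.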

How the results depend on the processing

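The direction of the Nrf2 effect held for all 10 cone genes at both ages under every alternative run. At P20, the count of 2 called genes was 6 with DESeq2, 6 with no replicate block, 1 when at least 10 counts were required in every library (7 genes then remained), 1 without P20 mice 3 and 4, and 0 to 3 without a single mouse (0 without mouse 1, 5, or 7). At P40, the 9 called were 8 to 10 without a single mouse and within 1.5 times under all others. Between ages, DESeq2 called 4 in control eyes and 4 in Nrf2 eyes where edgeR called 0, the filter on every library gave 1 in control eyes (*Gngt2*), and leaving out a mouse gave 0 to 1 in control eyes (1 without P40 mouse 1, 4, 6, or 8). Signs turned for *Arr3* in the age comparison of Nrf2 eyes without P40 mouse 6 (range without a single mouse −0.17 to 1.87) and for *Cnga3* without P20 mouse 2 (range −1.31 to 0.45). In the difference of the Nrf2 effect between ages, *Arr3* turned to 0.051 without P20 mice 3 and 4 and ranged from −0.70 to 0.59 without a single mouse, and with no replicate block *Pde6h* (0.22), *Gngt2* (0.53), and *Gnb3* (0.91) turned. Of the 8 partner correlations that passed, 2 did without the 2 farthest eyes; at P20 only 5 eyes then remain, whose smallest exact *P* is 0.00833, so the count does not show that a relation was lost (r was 0.99 for *Pde6c* with *Pde6h* and 0.97 for *Gnb3* with *Gngt2* in control eyes at P20). Those of *Gnb3* with *Gngt2* in Nrf2 eyes (−0.42 at P20, −0.63 at P40) and of *Pde6c* with *Pde6h* in Nrf2 eyes at P20 (−0.42) turned sign. The cause of these changes was not tested. Over all genes, counts called at P20 ranged from 111 to 1999 without a single mouse, so the calls at P20 depend on which mice enter. *Cnga3* in Nrf2 eyes rested on as few as 3 reads, which limits its precision.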

Other observations

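Of 7 markers of macrophages and microglia, edgeR called 4 higher in Nrf2 eyes at P40, where 3.33% of all genes were called higher: the chemokine receptor *Cx3cr1* (log2 fold change 1.67, SE 0.31, adjusted *P* = 0.00825), the complement gene *C1qa* (1.91, SE 0.24, adjusted *P* = 0.000587), its partner *C1qb*, and the lysozyme gene *Lyz2*. At P20, edgeR called none, 2 had an unadjusted *P* under 0.05, and DESeq2 called 3 higher and 1 lower. The most abundant of the list, the receptor *Csf1r*, had the opposite sign, with −0.99 at P40 (SE 0.29, adjusted *P* = 0.0902) and −0.76 at P20 (SE 0.24, adjusted *P* = 0.141), and was called lower at both ages by DESeq2 (adjusted *P* = 0.00869 and 0.0251). At P40, DESeq2 called the same 4 genes and *Aif1* higher. Of 7 genes of endothelium and fibroblasts, the collagen gene *Col3a1* was higher in Nrf2 eyes at P40, and *Col1a1*, *Col1a2*, and *Col3a1* were lower at P40 than at P20 in control eyes, but *Col1a2* and *Col3a1* were not called without P20 mice 3 and 4 (adjusted *P* = 0.0849 and 0.0794). No gene of the blood list (most abundant *Hba-a1*) or the muscle list (most abundant *Acta1*) was called between the eyes by edgeR or DESeq2 (1 blood gene had an unadjusted *P* under 0.05 at P20), and *Alas2* was lower at P40 than at P20 in control eyes, but not without P20 mice 3 and 4 (adjusted *P* = 0.0548).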
